A study of Mus musculus with 11 samples.

Results

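The collagen gene family was described across 2 clonal cell lines of interstitial cell of Cajal (ICC) progenitors and the mouse stomach muscle they were derived from. A gene was a member if a probe set of the array carried its symbol alone and the symbol had the form Col, a number, a and a number. This gave 42 genes with 82 probe sets, out of 18193 named genes, and for each gene the probe set brightest on average over the 11 arrays stood for it. Of these, 35 lay above the array median on at least 2 arrays and were tested, among 13285 genes tested in all. The rule used names only and no measured difference between groups.

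Collagens are extracellular proteins built from 3 chains wound into a triple helix. Fibrillar collagens form the tensile fibres of connective tissue, collagen IV forms the network of basement membranes, and other classes decorate fibrils, form beaded filaments or span the cell membrane. In the stomach wall, fibroblasts, smooth muscle cells and other cells of the muscle layers contribute to this matrix. Many collagens are made from chains of different genes, so the chains of one trimer are described together.

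The tsA58 line (2xSCS70, 3 arrays) was derived from H-2Kb-tsA58 mice, whose transgene puts a temperature-sensitive SV40 large T antigen behind a promoter that interferon induces. It was grown at 39.5 °C in a neural stem cell proliferation medium without interferon-gamma, and the labels name no embryo extract for it. The tsA58 tissue (3 arrays) was the gastric tunica muscularis, the muscle coat of the stomach, of H-2Kb-tsA58 mice. The C57BL/6J line (2xSCS2F10, 3 arrays) was derived from wild-type animals and kept at 37 °C in that medium with 5% chick embryo extract, and the C57BL/6J tissue (2 arrays) was the same muscle coat. Each line is 1 clone, so strain, transgene, clone, temperature and extract cannot be told apart between the lines. The ages of the mice are not given in the sources used here, and the titles call the replicates biological while separate cultures or animals are named in no label, so p-values measure the spread between these arrays, which may be technical for the lines.

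Levels are log2 intensities and differences are log2 fold changes with their standard error (SE). A gene was called higher or lower when its Benjamini-Hochberg adjusted p over all tested genes was below 0.05 and it differed by 2-fold or more. Array medians ran from 4.66 to 4.84, and a level close to or under them was taken as background. Where every array of a group lay under its median, the fitted difference is not a measured fold, and a bound is given with the array medians in place of that group's lower levels. Of the called differences of a collagen between a line and its tissue, 11 are of this kind. Replicate arrays correlated at 0.956 to 0.991 within a group. Of the defining ICC markers, Kit lay at 3.16 to 3.79 in the tsA58 line, against 7.34 to 8.61 in tsA58 tissue, and 3.35 to 3.87 in the C57BL/6J line, against 6.83 to 7.47 in C57BL/6J tissue, which puts it at background in both lines. Ano1 lay at 6.29 to 7.82 in the tsA58 line, against 9.68 to 10.1 in tsA58 tissue, and 6.02 to 6.56 in the C57BL/6J line, against 9.89 to 9.94 in C57BL/6J tissue.

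Of the 42 collagens, 24 lay above the median on every tsA58 line array, 31 on every tsA58 tissue array, 26 on every C57BL/6J line array and 31 on every C57BL/6J tissue array. The 7 that were not tested were Col6a5, Col9a2, Col10a1, Col13a1, Col17a1, Col24a1 and Col26a1, with levels between 2.32 and 5.89. Of the tested members, 6 passed the filter through tissue arrays alone (Col4a3, Col4a4, Col6a4, Col14a1, Col19a1 and Col23a1) and 1 through line arrays alone (Col11a2). In a line against its tissue the filter largely set the direction of these members, so their direction is not a result. Col6a4 passed through the C57BL/6J tissue arrays alone, so the same holds for it between the tissues and for the difference between strains.

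**Figure D1:**
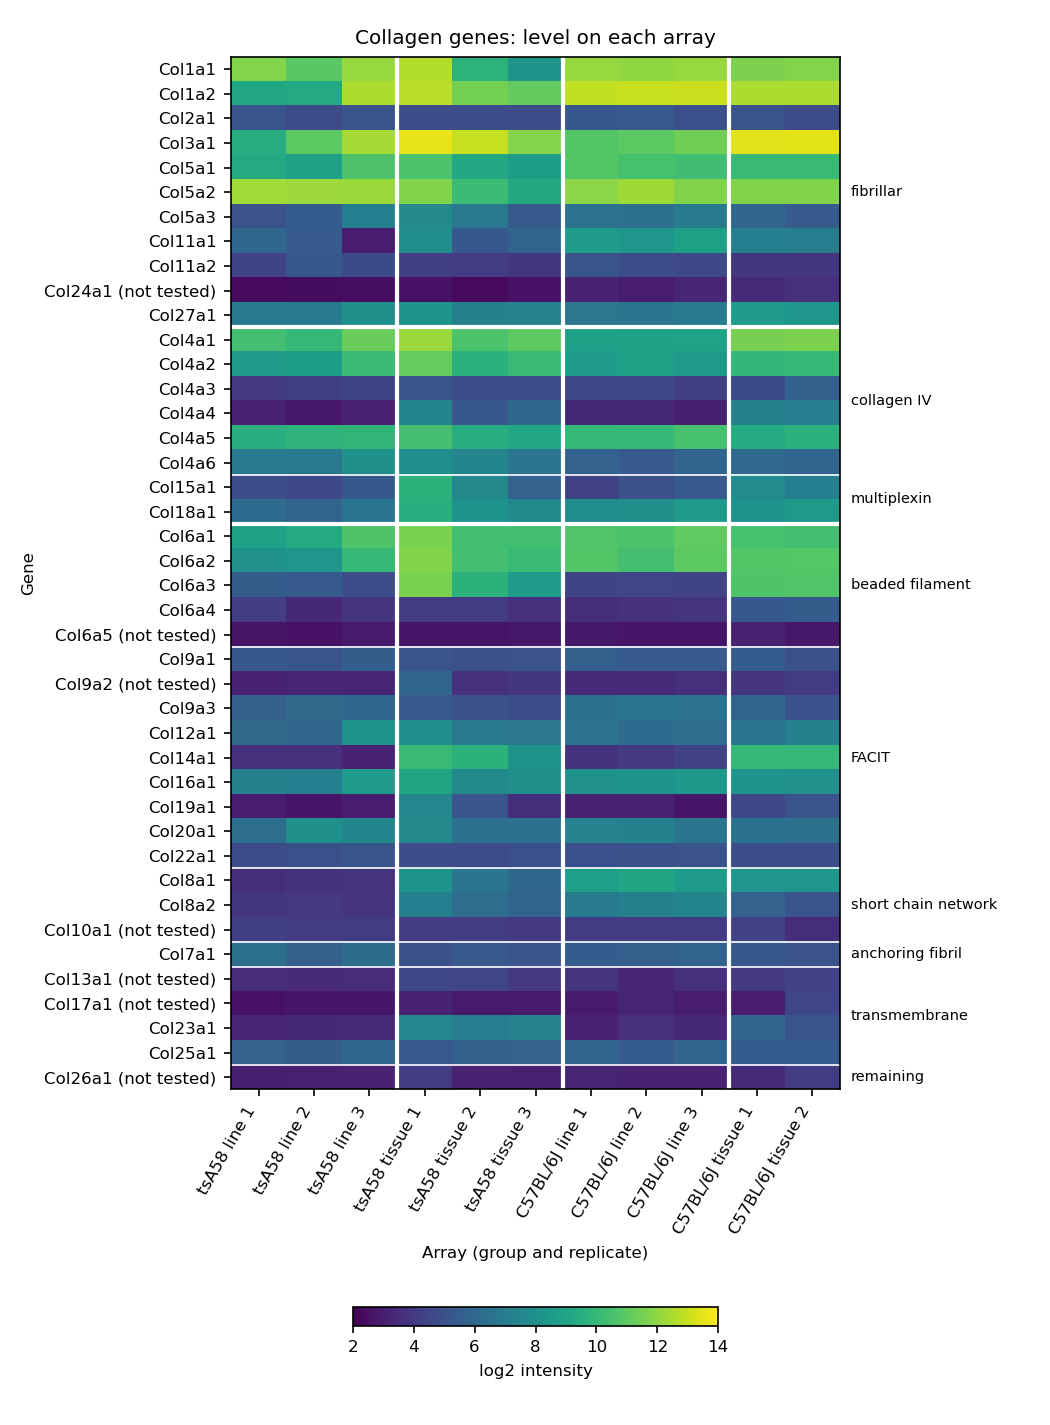
Level of each of the 42 collagen genes (rows, grouped by class) on each of the 11 arrays (columns, grouped as tsA58 line, tsA58 tissue, C57BL/6J line and C57BL/6J tissue), as log2 intensity. Colours are to be compared along a row only, since probe sets differ in brightness. Col6a3 and Col14a1 are dark in both lines and bright in both tissues, and tsA58 tissue replicate 1 is the brightest of its group for 31 of the 35 tested genes.

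In the tsA58 line against its tissue, 12 of 35 tested collagens were called, 1 higher and 11 lower, against 31.7% of all tested genes called, 12.8% higher and 18.9% lower. In the C57BL/6J line against its tissue, 12 were also called, 2 higher and 10 lower, against 34.1% of all genes, 17.5% higher and 16.6% lower. The share of collagens called was thus near that of all genes in both strains. The lower calls include members that passed the filter through tissue arrays alone. These were Col4a4, Col14a1 and Col23a1 in both strains, Col19a1 in tsA58 and Col6a4 in C57BL/6J. The collagen median was -0.68 in tsA58 and 0.08 in C57BL/6J, and the median of all genes was -0.00 in tsA58 and 0.12 in C57BL/6J. These differences are relative to the bulk of transcripts on each array. With arrays centred on the hybridisation controls instead, the median of all genes moved by 0.60 in tsA58 and 1.23 in C57BL/6J. The collagen calls became 2 higher and 9 lower in tsA58 and 12 higher and 3 lower in C57BL/6J. Of all 13285 genes, this centring called 1821 higher and 1151 lower in tsA58 and 5148 higher and 723 lower in C57BL/6J.

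In both lines 6 collagens were lower than in tissue (Col3a1, Col4a4, Col6a3, Col14a1, Col15a1 and Col23a1), against 11% of all genes. Among them, Col4a4, Col14a1 and Col23a1 passed the filter through tissue arrays alone, which largely set their direction. By limma 0 collagens were called higher in both, against 5.8% of all genes. At an unadjusted p under 0.05, 2 (Col9a3 and Col11a2) were higher in both, and their adjusted p was also under 0.05 in each strain. They were not called in both because Col9a3 in tsA58 and Col11a2 in both strains were under 2-fold. Col11a2 passed the filter through line arrays alone, which largely set its direction. Col8a2 alone was called in opposite directions by the probe sets that stood for the genes, against 0.82% of all genes. The 2 other Col8a1 probe sets also went in opposite directions. They gave 1.15 and 2.07 in C57BL/6J (limma adjusted p over all probe sets 0.0392 and 0.000361). In tsA58 they gave -3.27 and -1.15 (limma adjusted p over all probe sets 4.5e-05 and 0.00665). The markers of fibroblasts, which make much of the interstitial collagen, were also lower in the lines. In the tsA58 line all 7 fibroblast markers were called lower, as were 4 of 7 in the C57BL/6J line. Their mean level was 5.78 to 6.66 in the tsA58 line, against 10.7 to 11.4 in tsA58 tissue, and 6.49 to 6.58 in the C57BL/6J line, against 10.37 to 10.40 in C57BL/6J tissue. Of these markers, 2 were below the median on every tsA58 line array and 4 on every C57BL/6J line array. The 8 smooth muscle markers moved the same way, with 8 called lower in tsA58 and 7 in C57BL/6J, and a mean level of 4.61 to 5.04 in the tsA58 line, against 10.996 to 11.69 in tsA58 tissue, and 4.76 to 5.12 in the C57BL/6J line, against 10.2 to 10.4 in C57BL/6J tissue. Lower markers were not particular to these 2 lists. All 6 enteric neuron markers were called lower in each line, as were 5 of 5 endothelial markers in tsA58 and 3 in C57BL/6J. Of 11 gastric epithelial markers, 9 were lower and 1 higher in tsA58, and 8 were lower in C57BL/6J. Of 4 mesothelial markers, 1 was lower in tsA58 and 1 higher in C57BL/6J. In bulk RNA, fewer cells of a type and less RNA per cell cannot be told apart, and the part of these cell types in the collagen differences was not tested.

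**Figure D2:**
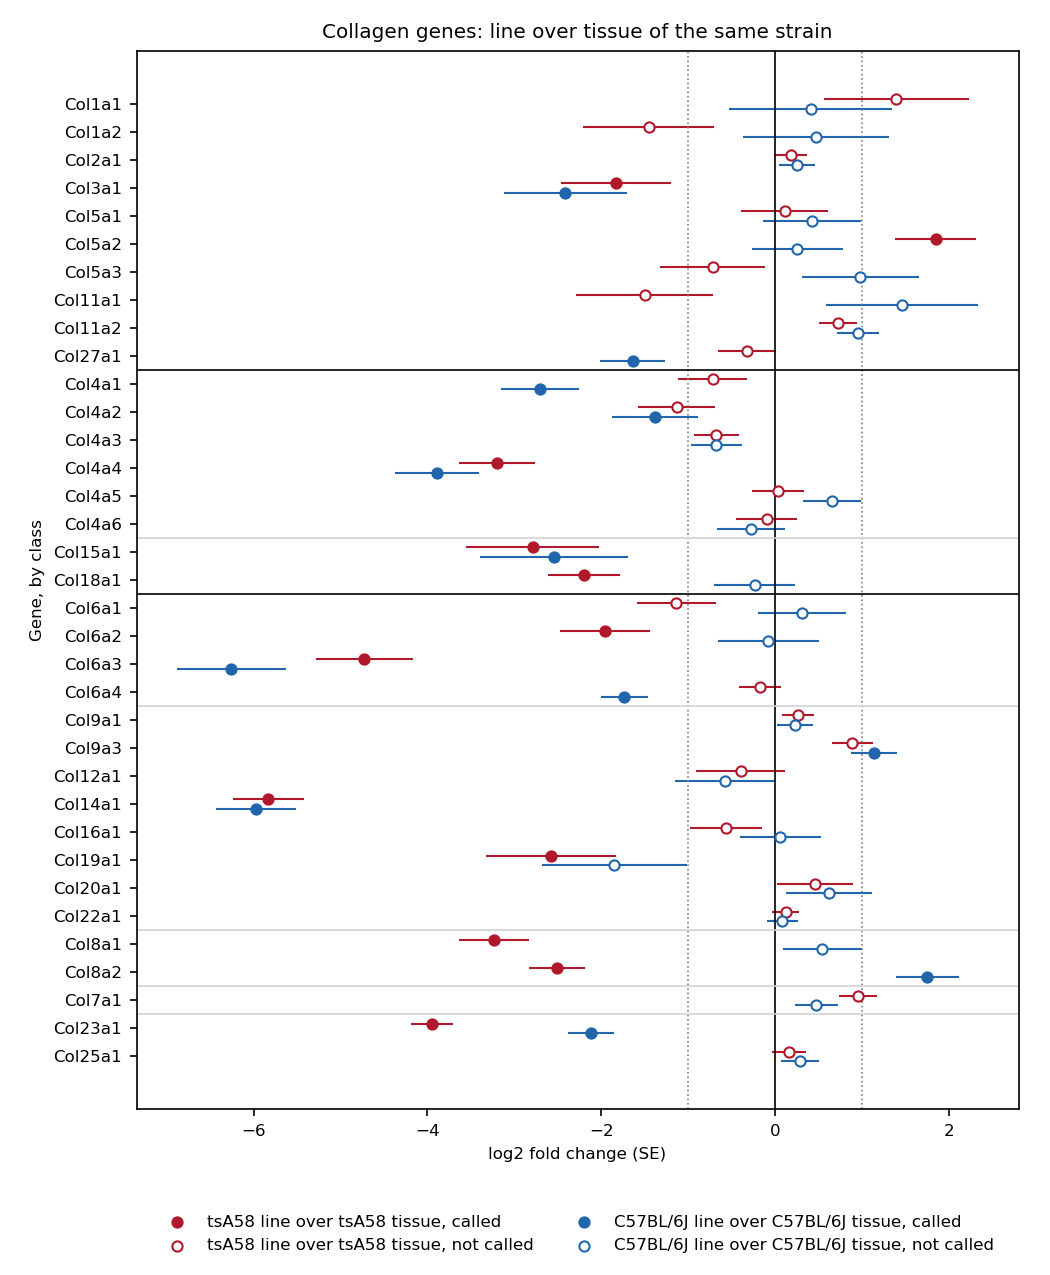
Log2 fold change of each of the 35 tested collagens (rows, by class) in the line over the tissue of its strain, with bars of 1 SE, for tsA58 (red) and C57BL/6J (blue). Filled points were called, open points were not, and dotted lines mark 2-fold. Calls lie mostly left of 0 in both strains, and Col8a1, Col8a2 and Col18a1 separate the strains. Centring C57BL/6J arrays on hybridisation controls instead gives 12 higher and 3 lower, against 5148 of 13285 genes higher and 723 lower.

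Among the fibrillar collagens, 10 of 11 genes were tested. Collagen I, the main fibril of most connective tissue, was expressed in all groups and neither of its chains was called in a line against its tissue. Col1a1, its alpha 1 chain, had 11.76, 10.92 and 12.14 in the tsA58 line, against 12.63, 9.78 and 8.23 in tsA58 tissue, and 12.14, 12.01 and 12.16 in the C57BL/6J line, against 11.62 and 11.76 in C57BL/6J tissue. The 3 tsA58 tissue arrays spanned more than the distance between any group means, and the tsA58 groups overlapped. The log2 fold change was 1.40 (SE 0.84, adjusted p = 0.197) in tsA58 and 0.41 (SE 0.94, adjusted p = 0.752) in C57BL/6J. Without tsA58 tissue replicate 1 it was 2.60 in tsA58 (adjusted p = 0.00118), which passes the threshold. In C57BL/6J the sign of Col1a1 depended on the probe set, with -0.43 for the mean of both.

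Col1a2, the alpha 2 chain of collagen I, had 9.18, 9.31 and 12.51 in the tsA58 line, against 12.78, 11.47 and 11.12 in tsA58 tissue, and 12.91, 13.01 and 13.02 in the C57BL/6J line, against 12.51 and 12.52 in C57BL/6J tissue. Replicate 3 of the tsA58 line stood about as high as the tissues, and the other 2 arrays lay well below all other groups. Line over tissue gave a log2 fold change of -1.45 (SE 0.75, adjusted p = 0.136) in tsA58 and 0.47 (SE 0.84, adjusted p = 0.685) in C57BL/6J. Without tsA58 line replicate 3 it was -2.54 in tsA58 (adjusted p = 0.000556), which passes the threshold.

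Col3a1, the chain of collagen III, which forms thin fibrils in distensible organs, was lower in both lines. It had 9.49, 10.99 and 12.41 in the tsA58 line, against 13.58, 12.95 and 11.84 in tsA58 tissue, and 10.81, 10.98 and 11.42 in the C57BL/6J line, against 13.46 and 13.51 in C57BL/6J tissue. The C57BL/6J groups were apart, while the highest tsA58 line array exceeded the lowest tsA58 tissue array. Against tissue, its log2 fold change was -1.83 (SE 0.63, adjusted p = 0.0349) in tsA58 and -2.42 (SE 0.71, adjusted p = 0.0167) in C57BL/6J. The tsA58 call was lost without line replicate 1 (-1.09, adjusted p = 0.122), line replicate 2 (-1.84, adjusted p = 0.0712), tissue replicate 1 (-1.43, adjusted p = 0.118) or tissue replicate 2 (-1.75, adjusted p = 0.0814), and after quantile normalization (adjusted p = 0.0648). The C57BL/6J call was lost without tissue replicate 1 (-2.44, adjusted p = 0.0763) or tissue replicate 2 (-2.40, adjusted p = 0.0804). A second Col3a1 probe set gave -3.43 in tsA58 and -4.82 in C57BL/6J.

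Collagen V nucleates collagen I fibrils, and Col5a2, its alpha 2 chain, was the only member called higher in the tsA58 line. It had 12.33, 12.25 and 12.19 in the tsA58 line, against 11.72, 10.21 and 9.30 in tsA58 tissue, and 11.91, 12.27 and 11.71 in the C57BL/6J line, against 11.71 and 11.71 in C57BL/6J tissue. The tsA58 groups did not overlap, and the line arrays were close together while the tissue arrays were spread. On the log2 scale the line differed from tissue by 1.85 (SE 0.47, adjusted p = 0.00783) in tsA58 and 0.26 (SE 0.52, adjusted p = 0.721) in C57BL/6J, and the C57BL/6J value was -0.65 for the mean of its probe sets. Col5a2 and Col3a1 are neighbours in the RefSeq annotation of GRCm38.p6, and in tsA58 the calls of this pair were in opposite directions. Col5a1, the alpha 1 chain, was not called, at 0.11 in tsA58 and 0.42 in C57BL/6J.

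Collagen XI chains assemble into thin fibrils with collagen V and, in cartilage, with collagen II. Col11a1 had 6.08, 5.43 and 2.93 in the tsA58 line, against 7.87, 5.26 and 5.82 in tsA58 tissue, and 8.62, 8.33 and 8.82 in the C57BL/6J line, against 7.19 and 7.08 in C57BL/6J tissue. All C57BL/6J line arrays were above all arrays of the other groups, and tsA58 line replicate 3, the highest array of its group for Col1a2 and Col3a1, was the lowest here. The log2 fold change over tissue was -1.50 (SE 0.79, adjusted p = 0.141) in tsA58 and 1.46 (SE 0.88, adjusted p = 0.2) in C57BL/6J. Fitted on the C57BL/6J arrays alone, the C57BL/6J value passed the threshold (adjusted p = 0.000515). Without tsA58 line replicate 3 and tsA58 tissue replicate 1 together, an alternative chosen after seeing the data, the tsA58 value was 0.22, so its sign rests on those arrays.

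Col27a1, a short fibrillar chain best known from cartilage, had 6.90, 6.94 and 8.03 in the tsA58 line, against 8.23, 7.28 and 7.33 in tsA58 tissue, and 6.77, 6.71 and 6.92 in the C57BL/6J line, against 8.59 and 8.29 in C57BL/6J tissue. It was lower in the C57BL/6J line, at -1.64 (SE 0.37, adjusted p = 0.00437), and was not called in the tsA58 line, at -0.32 (SE 0.33). The difference between these 2 values was 1.32 (SE 0.50, adjusted p = 0.0824), which did not pass the threshold. The remaining fibrillar members were never called: Col2a1, the chain of cartilage collagen II, lay between 4.75 and 5.35 on all arrays, and Col5a3 lay between 5.06 and 7.67. Col11a2 was higher than in tissue by less than 2-fold, at 0.72 (adjusted p = 0.0195) in tsA58 and 0.95 (adjusted p = 0.00856) in C57BL/6J. It passed the filter through line arrays alone, so its direction is not a result.

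**Figure D3:**
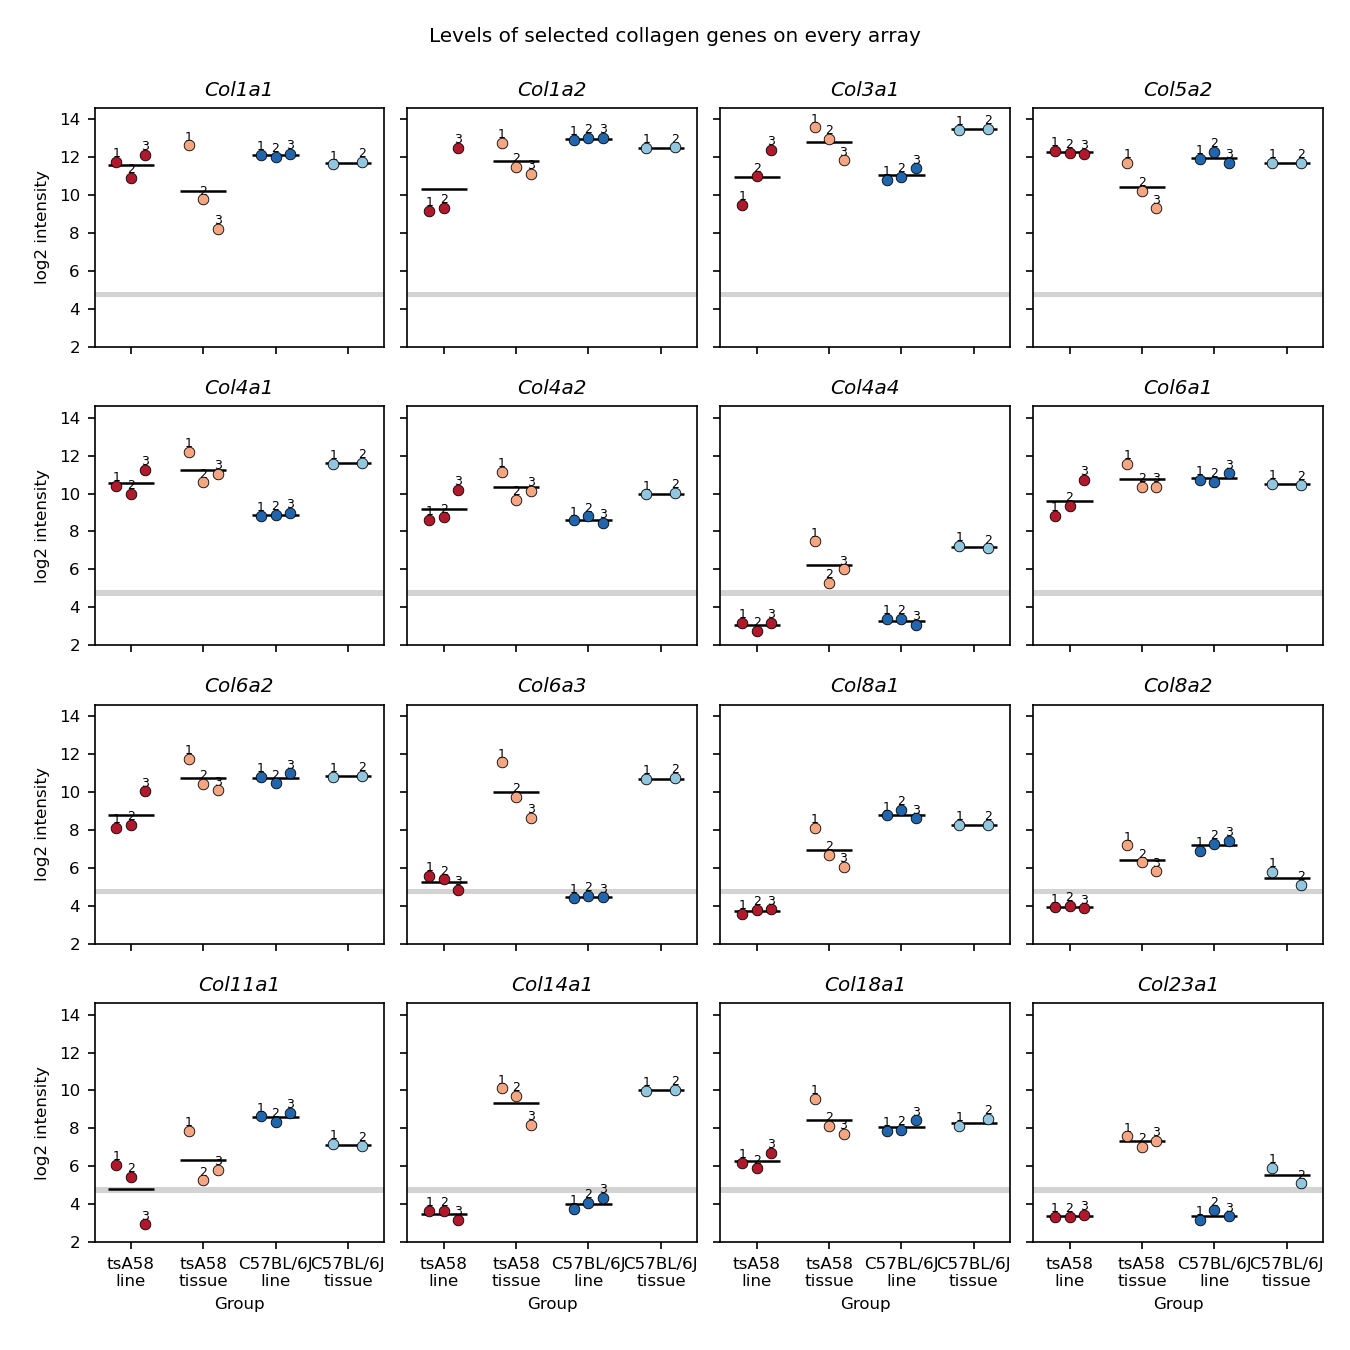
Level of 16 collagen genes on every array (log2 intensity), 1 panel per gene, with groups from left to right tsA58 line, tsA58 tissue, C57BL/6J line and C57BL/6J tissue. Points are arrays numbered by replicate, black bars are group means and the grey band is the range of array medians. In the Col8a1 panel the tsA58 line sits at 3.59 to 3.81, below the band, while the C57BL/6J line sits at 8.60 to 9.07, and the Col1a1 and Col1a2 panels show the spread of the tsA58 arrays.

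Of the basement membrane collagens, all 8 were tested, of which 3 were lower than tissue in tsA58 and 4 in C57BL/6J, with 0 higher in either by limma, also at an unadjusted p under 0.05. Of all genes, 18.9% were lower and 12.8% higher in tsA58, and 16.6% were lower and 17.5% higher in C57BL/6J. The class counts include Col4a4, called lower in both strains, and Col4a3, not called. Both passed the filter through tissue arrays alone, which largely set their direction. Collagen IV is secreted as trimers of alpha 1 and alpha 2 chains in most basement membranes, and Col4a1 and Col4a2 are transcribed away from each other from a shared promoter region. The RefSeq promoter windows of GRCm38.p6, 250 bases before and 50 after each start, are shown for these genes because they overlap. Capitals mark the 78 bases in both windows, each read 5′ to 3′ on its own gene's strand. The window of Col4a1 is chr8:11312777-11313076 on the minus strand and that of Col4a2 is chr8:11312555-11312854 on the plus strand.
Col4a1: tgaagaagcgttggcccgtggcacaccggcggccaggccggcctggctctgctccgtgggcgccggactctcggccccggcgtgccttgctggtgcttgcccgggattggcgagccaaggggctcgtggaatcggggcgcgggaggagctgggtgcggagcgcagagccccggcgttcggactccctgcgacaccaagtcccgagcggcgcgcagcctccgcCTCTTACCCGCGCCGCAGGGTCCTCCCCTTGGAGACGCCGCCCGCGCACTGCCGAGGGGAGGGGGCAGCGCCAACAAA
Col4a2: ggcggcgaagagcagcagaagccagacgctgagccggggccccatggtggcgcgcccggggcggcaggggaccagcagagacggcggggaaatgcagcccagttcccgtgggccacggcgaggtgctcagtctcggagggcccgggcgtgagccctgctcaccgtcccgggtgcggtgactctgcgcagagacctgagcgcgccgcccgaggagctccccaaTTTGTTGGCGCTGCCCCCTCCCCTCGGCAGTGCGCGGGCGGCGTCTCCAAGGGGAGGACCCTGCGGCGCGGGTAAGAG

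Col4a1 had 10.42, 9.97 and 11.26 in the tsA58 line, against 12.19, 10.59 and 11.03 in tsA58 tissue, and 8.81, 8.87 and 8.98 in the C57BL/6J line, against 11.55 and 11.63 in C57BL/6J tissue. The C57BL/6J line was below every other array, and the tsA58 groups overlapped. Its log2 fold change was -0.72 (SE 0.40, adjusted p = 0.164) in tsA58 and -2.70 (SE 0.45, adjusted p = 0.000651) in C57BL/6J. Without tsA58 line replicate 3 the tsA58 value was -1.07 (adjusted p = 0.0408), which passes the threshold.

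Col4a2 had 8.62, 8.74 and 10.21 in the tsA58 line, against 11.15, 9.67 and 10.15 in tsA58 tissue, and 8.59, 8.80 and 8.44 in the C57BL/6J line, against 9.96 and 10.03 in C57BL/6J tissue. Its log2 fold change was -1.13 (SE 0.44, adjusted p = 0.0552) in tsA58 and -1.39 (SE 0.49, adjusted p = 0.0403) in C57BL/6J. The C57BL/6J call was lost without any 1 of its 5 arrays, with adjusted p from 0.0644 to 0.15, and with no filter on low values (adjusted p = 0.0534). The tsA58 value passed the threshold without line replicate 3 (-1.65, adjusted p = 0.00361) or tissue replicate 2 (-1.46, adjusted p = 0.0271).

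Col4a3, Col4a4 and Col4a5 encode the chains of the alpha 3, 4, 5 network of specialised basement membranes such as that of the kidney filter. Col4a4 had 3.19, 2.76 and 3.19 in the tsA58 line, against 7.47, 5.27 and 6.00 in tsA58 tissue, and 3.40, 3.38 and 3.08 in the C57BL/6J line, against 7.24 and 7.11 in C57BL/6J tissue. All line arrays were at background and all tissue arrays above it. Col4a4 thus passed the filter through tissue arrays alone, and its direction is not a result. The log2 fold change was -3.20 (SE 0.44, adjusted p = 0.00018) in tsA58 and -3.89 (SE 0.49, adjusted p = 0.000108) in C57BL/6J, and with the lines at background it was at least 2.96-fold lower in tsA58 and at least 5.50-fold lower in C57BL/6J. Its neighbour Col4a3 was close to background throughout, between 4.03 and 5.71, and was not called. Col4a5 was well above background in every group, between 9.16 and 10.50, and was not called in any comparison. A second Col4a5 probe set gave 0.23 in tsA58 and 1.29 in C57BL/6J, where it passed the threshold (limma adjusted p over all probe sets 0.0471).

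Col4a6, whose chain pairs with that of Col4a5 in smooth muscle basement membranes, was higher in the tsA58 groups than in the C57BL/6J groups. It had 6.89, 6.87 and 8.0 in the tsA58 line, against 7.85, 7.47 and 6.72 in tsA58 tissue, and 5.75, 5.44 and 5.90 in the C57BL/6J line, against 6.11 and 5.85 in C57BL/6J tissue. Every tsA58 array was above every C57BL/6J array. Line against tissue was not called, at -0.10 (SE 0.35) in tsA58 and -0.28 (SE 0.39) in C57BL/6J. A second Col4a6 probe set gave -0.30 in tsA58 and -1.28 in C57BL/6J, where it passed the threshold (limma adjusted p over all probe sets 0.0141).

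Collagens XV and XVIII are multiplexins, which carry glycosaminoglycan chains and sit at the outer face of basement membranes. Col15a1 had 4.82, 4.63 and 5.32 in the tsA58 line, against 9.73, 7.64 and 5.78 in tsA58 tissue, and 4.38, 4.97 and 5.42 in the C57BL/6J line, against 7.77 and 7.17 in C57BL/6J tissue. It was lower in both lines, at -2.79 (SE 0.76, adjusted p = 0.0115) in tsA58 and -2.55 (SE 0.85, adjusted p = 0.0304) in C57BL/6J, and the groups of neither strain overlapped. The line arrays, from 4.38 to 5.42, lay near the array medians, so these differences end close to background. The C57BL/6J call was lost without line replicate 1 (adjusted p = 0.089), line replicate 2 (adjusted p = 0.064), tissue replicate 1 (adjusted p = 0.158) or tissue replicate 2 (adjusted p = 0.0803).

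Col18a1, the source of the endostatin fragment, had 6.18, 5.88 and 6.71 in the tsA58 line, against 9.54, 8.12 and 7.70 in tsA58 tissue, and 7.85, 7.93 and 8.42 in the C57BL/6J line, against 8.12 and 8.48 in C57BL/6J tissue. The tsA58 line was below every other array. Line over tissue gave a log2 fold change of -2.20 (SE 0.42, adjusted p = 0.00153) in tsA58 and -0.23 (SE 0.47, adjusted p = 0.716) in C57BL/6J, and the C57BL/6J value was 0.10 for the mean of its probe sets.

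Collagen VI forms beaded microfilaments around cells, and its common trimer needs the alpha 1, alpha 2 and alpha 3 chains. In the C57BL/6J line the genes of this trimer were far apart: Col6a1 and Col6a2 were not called against tissue and Col6a3 was lower and at background. Col6a3 had 5.56, 5.38 and 4.82 in the tsA58 line, against 11.57, 9.72 and 8.64 in tsA58 tissue, and 4.40, 4.52 and 4.44 in the C57BL/6J line, against 10.68 and 10.73 in C57BL/6J tissue. The lowest tissue array was more than 3 log2 units above the highest line array. Against tissue, its log2 fold change was -4.72 (SE 0.56, adjusted p = 7.16e-05) in tsA58 and -6.26 (SE 0.63, adjusted p = 2.47e-05) in C57BL/6J. This is 26.4-fold lower in the tsA58 line, where replicate 3, at 4.82, was close to background. In the C57BL/6J line, which was at background, it is at least 63.7-fold lower.

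Col6a1 had 8.83, 9.34 and 10.71 in the tsA58 line, against 11.58, 10.36 and 10.36 in tsA58 tissue, and 10.73, 10.62 and 11.07 in the C57BL/6J line, against 10.52 and 10.48 in C57BL/6J tissue. Its log2 fold change was -1.14 (SE 0.46, adjusted p = 0.0624) in tsA58 and 0.31 (SE 0.51, adjusted p = 0.657) in C57BL/6J. Without tsA58 line replicate 3 the tsA58 value was -1.68 (adjusted p = 0.00345), which passes the threshold.

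Col6a2 had 8.09, 8.25 and 10.04 in the tsA58 line, against 11.74, 10.41 and 10.09 in tsA58 tissue, and 10.79, 10.46 and 10.98 in the C57BL/6J line, against 10.80 and 10.84 in C57BL/6J tissue. The tsA58 groups came close but did not overlap. It was lower in the tsA58 line, at -1.96 (SE 0.52, adjusted p = 0.0104), and was not called in the C57BL/6J line, at -0.08 (SE 0.58, adjusted p = 0.927), where the sign changed with the probe sets used (0.033) and without line replicate 2 (0.066).

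Col6a4, a later described collagen VI chain, had 4.17, 3.32 and 3.85 in the tsA58 line, against 4.15, 4.12 and 3.60 in tsA58 tissue, and 3.58, 3.72 and 3.79 in the C57BL/6J line, against 5.31 and 5.55 in C57BL/6J tissue. It was above background on the C57BL/6J tissue arrays only, and was lower in the C57BL/6J line by at least 1.64-fold (fitted log2 difference -1.73, SE 0.27, adjusted p = 0.000404). Those arrays alone took it through the filter, so its direction is not a result.

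The RefSeq promoter window of Col6a3 is shown because this gene had the largest difference of the family in C57BL/6J. It is chr1:90843922-90844221 of GRCm38.p6 on the minus strand and is all in lower case because it held 0 matches on either strand to the 3 motifs searched: the CCAAT box, the letters GGGCGG of the GC box, and the letters TATAAA of the TATA box.
Col6a3: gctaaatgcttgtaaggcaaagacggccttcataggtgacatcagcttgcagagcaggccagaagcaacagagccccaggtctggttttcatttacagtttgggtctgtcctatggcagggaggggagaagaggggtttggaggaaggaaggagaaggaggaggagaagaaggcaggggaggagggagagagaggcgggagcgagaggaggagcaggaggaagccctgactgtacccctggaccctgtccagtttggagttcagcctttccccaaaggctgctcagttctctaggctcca
A window was found for 33 of the 42 members, in 36 windows. The CCAAT box was in 13 of these and in 37.4% of all 32851 windows of 300 bases. The GC box letters were in 22, against 35.7% of all windows, and the TATA box letters in 5, against 13.6% of all windows. A match is a run of letters and not a known site.

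The fibril-associated (FACIT) collagens bind the surface of fibrils and link them to other matrix proteins, and 8 of 9 were tested. Col14a1, the chain of collagen XIV, had 3.65, 3.66 and 3.18 in the tsA58 line, against 10.11, 9.69 and 8.18 in tsA58 tissue, and 3.74, 4.05 and 4.31 in the C57BL/6J line, against 9.99 and 10.01 in C57BL/6J tissue. All line arrays were below the median and all tissue arrays far above it, so that it was at least 24.9-fold lower in the tsA58 line and at least 39.0-fold lower in the C57BL/6J line. Col14a1 passed the filter through tissue arrays alone, which largely set this direction, so the direction is not a result. The fitted log2 difference, which ends at background, was -5.83 (SE 0.41, adjusted p = 1.5e-06) in tsA58 and -5.97 (SE 0.46, adjusted p = 4.74e-06) in C57BL/6J, and a second probe set gave -3.75 in tsA58 and -3.12 in C57BL/6J.

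Col19a1, whose collagen XIX is found in basement membrane zones of muscle, had 2.97, 2.70 and 2.93 in the tsA58 line, against 7.57, 5.20 and 3.56 in tsA58 tissue, and 3.08, 3.22 and 2.73 in the C57BL/6J line, against 4.61 and 5.12 in C57BL/6J tissue. The tsA58 tissue arrays ran from background to well above it. Col19a1 passed the filter through tissue arrays alone, so its direction is not a result. It was lower in the tsA58 line by at least 1.69-fold (fitted log2 difference -2.58, SE 0.75, adjusted p = 0.0155), which was not called when only the tsA58 arrays were fitted (adjusted p = 0.0578), and in C57BL/6J the value was -1.85 (SE 0.83, adjusted p = 0.0924).

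Col9a3, a chain of cartilage collagen IX, had 5.68, 6.14 and 6.02 in the tsA58 line, against 5.36, 4.96 and 4.85 in tsA58 tissue, and 6.53, 6.67 and 6.56 in the C57BL/6J line, against 5.85 and 5.04 in C57BL/6J tissue. It was higher in the C57BL/6J line by 1.14 (SE 0.26, adjusted p = 0.00493), and by 0.89 (adjusted p = 0.0104) in tsA58, which is under 2-fold. Without C57BL/6J tissue replicate 2 the C57BL/6J value was 0.74 (adjusted p = 0.0746), and after cyclic loess it was 0.93, under 2-fold. Col9a1, Col12a1, Col16a1, Col20a1 and Col22a1 were never called. For Col12a1 this depended on the probe set. The brightest gave -0.40 in tsA58 and -0.58 in C57BL/6J. A second was lower in both lines, at -2.53 in tsA58 and -3.47 in C57BL/6J (limma adjusted p over all probe sets 0.00394 and 0.0011).

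Collagen VIII is a short-chain collagen of vessel walls and of the membrane under the corneal endothelium, built from the chains of Col8a1 and Col8a2. Both genes were above background in the C57BL/6J line and at background in the tsA58 line, where Col8a1 was at least 4.82-fold and Col8a2 at least 3.34-fold lower than in tissue. Col8a1 had 3.59, 3.77 and 3.81 in the tsA58 line, against 8.10, 6.70 and 6.06 in tsA58 tissue, and 8.76, 9.07 and 8.60 in the C57BL/6J line, against 8.27 and 8.27 in C57BL/6J tissue. The log2 fold change over tissue was -3.23 (SE 0.41, adjusted p = 0.000106) in tsA58 and 0.54 (SE 0.45, adjusted p = 0.358) in C57BL/6J, and for the mean of its 3 probe sets the C57BL/6J value was 1.26 (adjusted p = 0.0173).

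Col8a2 had 3.91, 3.97 and 3.86 in the tsA58 line, against 7.19, 6.29 and 5.81 in tsA58 tissue, and 6.91, 7.24 and 7.41 in the C57BL/6J line, against 5.78 and 5.10 in C57BL/6J tissue. No groups of the same strain overlapped, and the order of line and tissue was opposite in the strains. The log2 fold change was -2.51 (SE 0.32, adjusted p = 0.000119) in tsA58 and 1.75 (SE 0.36, adjusted p = 0.00242) in C57BL/6J.

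The RefSeq promoter windows of both collagen VIII genes are shown because the genes moved together between the lines. Col8a1 is chr16:57754688-57754987 on the minus strand and Col8a2 is chr4:126286544-126286843 on the plus strand, both of GRCm38.p6. Capitals mark the matches to GGGCGG on either strand, 4 in each window; in Col8a2, 2 of them overlap. The CCAAT box and TATA box letters were not in these windows.
Col8a1: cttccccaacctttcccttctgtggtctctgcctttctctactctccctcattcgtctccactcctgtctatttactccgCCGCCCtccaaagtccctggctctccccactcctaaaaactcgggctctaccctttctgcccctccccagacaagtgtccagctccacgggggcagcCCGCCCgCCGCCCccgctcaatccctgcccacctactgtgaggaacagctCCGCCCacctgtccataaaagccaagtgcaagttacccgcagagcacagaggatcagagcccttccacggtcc
Col8a2: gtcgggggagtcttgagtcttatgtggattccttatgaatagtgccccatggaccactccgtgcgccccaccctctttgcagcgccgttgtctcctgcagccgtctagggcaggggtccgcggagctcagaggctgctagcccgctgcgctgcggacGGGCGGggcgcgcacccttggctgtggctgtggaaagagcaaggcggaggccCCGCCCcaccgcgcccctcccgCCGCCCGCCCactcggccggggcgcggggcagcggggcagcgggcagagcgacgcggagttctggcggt

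Col23a1, a membrane-spanning collagen, had 3.31, 3.32 and 3.45 in the tsA58 line, against 7.57, 7.03 and 7.33 in tsA58 tissue, and 3.17, 3.67 and 3.36 in the C57BL/6J line, against 5.93 and 5.10 in C57BL/6J tissue. All line arrays were at background, so that it was at least 6.16-fold lower in the tsA58 line and at least 1.74-fold lower in the C57BL/6J line. Tissue arrays alone took Col23a1 through the filter, so this direction is not a result. The fitted log2 difference was -3.95 (SE 0.24, adjusted p = 4.79e-07) in tsA58 and -2.12 (SE 0.27, adjusted p = 0.000119) in C57BL/6J. Col25a1, another membrane-spanning collagen, lay between 5.41 and 6.07 on all arrays by its brightest probe set and was never called. A second probe set was not flat, at -0.63 in tsA58 and -2.29 in C57BL/6J against tissue, and -1.63 between the tissues. Limma adjusted p over all probe sets was 0.121 in tsA58, 0.000352 in C57BL/6J and 0.00785 between the tissues. Col7a1, the chain of the anchoring fibrils of skin, was higher in the tsA58 line by 0.95 (adjusted p = 0.00473), under 2-fold, and was not called.

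Between the lines, 8 of 35 collagens were called in the tsA58 line against the C57BL/6J line, 2 higher and 6 lower, against 14.2% of all genes, 8.38% higher and 5.77% lower. With centring on hybridisation controls, which moved the median of all genes by 1.49, this became 17 higher and 3 lower. The same centring called 7582 of 13285 genes higher and 96 lower. Both collagen VIII chains were lower, Col8a1 at -5.09 (SE 0.41, adjusted p = 2.64e-05) and Col8a2 at -3.27 (SE 0.32, adjusted p = 8.34e-05). With the tsA58 line at background, Col8a1 was at least 17.5-fold and Col8a2 at least 5.67-fold lower. The 2 other Col8a1 probe sets gave -4.62 and -3.02. Also lower were Col18a1 at -1.81 (SE 0.42, adjusted p = 0.0111), Col6a2 at -1.95 (SE 0.52, adjusted p = 0.0223), Col1a2 at -2.64 (SE 0.75, adjusted p = 0.0287) and Col11a1 at -3.78 (SE 0.79, adjusted p = 0.00686). Col4a1 was higher by 1.66 (SE 0.40, adjusted p = 0.0139) and Col4a6 by 1.56 (SE 0.35, adjusted p = 0.0101).

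The lines differed in RNA quality measures and in a marker list beside these genes. The 3′ over 5′ actin signal, on the log2 scale, was 0.51, 0.85 and 0.05 in the tsA58 line, against 1.03, 0.99 and 1.04 in the C57BL/6J line. With this ratio as a covariate, Col11a1 was at -1.90 (adjusted p = 0.162), Col4a1 at 0.88 (adjusted p = 0.243) and Col4a6 at 0.90 (adjusted p = 0.18), so these 3 calls were lost, while Col6a1 passed the threshold at -2.05 (adjusted p = 0.0344). The count with the covariate was 0 higher and 7 lower, against 2 higher and 6 lower without it. Of all 13285 genes, 2121 were called higher and 1124 lower with the covariate, against 1113 higher and 767 lower without it. The mean of the 4 mesothelial markers, of which 3 were called lower, was 7.0, 6.32 and 9.92 in the tsA58 line, against 10.49, 10.002 and 10.63 in the C57BL/6J line, with none below the median on every array of either line. In the tsA58 line the array with the highest mesothelial mean, replicate 3, was also the highest for 23 of 35 collagens, and it was the highest for 35.9% of all genes. The part of the mesothelial markers in these calls was not tested.

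Single arrays decided some of these calls. The Col1a2 call was lost without any 1 of the C57BL/6J line arrays, without tsA58 line replicate 1 or without tsA58 line replicate 2, with adjusted p from 0.0721 to 0.112. The Col6a2 call was lost without C57BL/6J line replicate 1 or 3 or tsA58 line replicate 1 or 2, with adjusted p from 0.0686 to 0.0898, and the Col4a1 call without C57BL/6J line replicate 1 (adjusted p = 0.0533). Without tsA58 line replicate 3, Col6a1 passed the threshold at -1.72 (adjusted p = 0.0052), against -1.18 (SE 0.46, adjusted p = 0.0883) with all arrays.

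**Figure D4:**
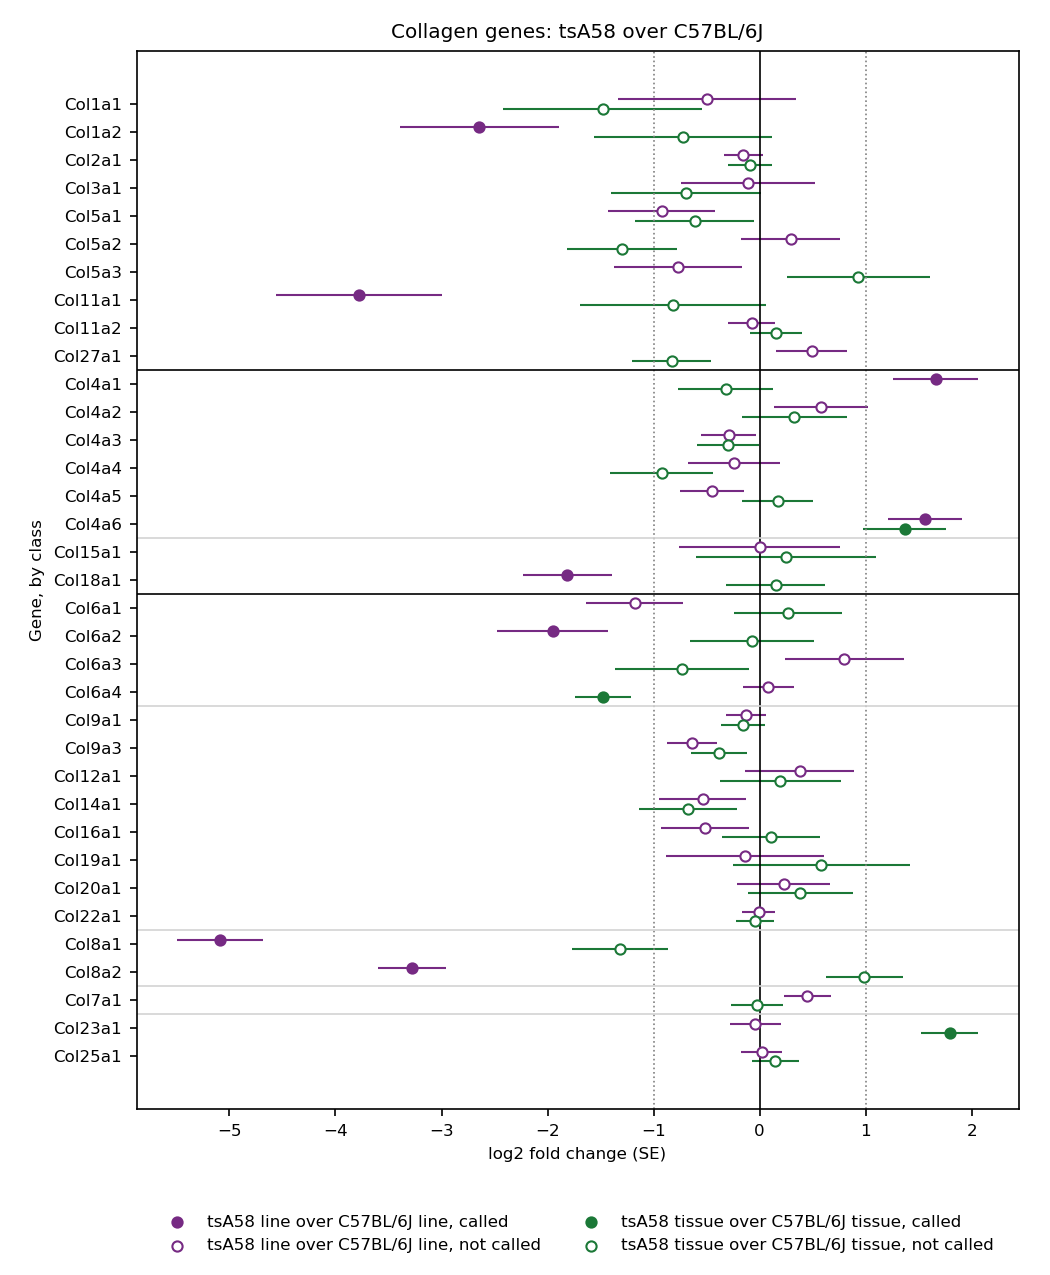
Log2 fold change of each of the 35 tested collagens (rows, by class) between the strains, with bars of 1 SE, for the tsA58 line over the C57BL/6J line (purple) and tsA58 tissue over C57BL/6J tissue (green). Filled points were called, open points were not, and dotted lines mark 2-fold. Col8a1 and Col8a2 lie at -5.09 and -3.27 in the lines, with the tsA58 line at background, and were not called in the tissues. Col4a6 is on the higher side in both. Under hybridisation control centring 17 collagens were higher in the line and 28 in the tissue. Of all 13285 genes, 7582 were then higher in the line and 12167 in the tissue.

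Between the tissues, 3 of 35 collagens were called in tsA58 tissue against C57BL/6J tissue, 2 higher and 1 lower, against 12.8% of all genes, 9.56% higher and 3.21% lower. Col23a1 was higher by 1.79 (SE 0.27, adjusted p = 0.00212), but its 2 other probe sets gave -0.18 and 1.12, and the mean of the 3 was 0.91, under 2-fold. Col4a6 was higher by 1.37 (SE 0.39, adjusted p = 0.0329). The 3′ over 5′ actin signal was 0.47, 0.43 and 0.41 in tsA58 tissue, against 1.02 and 0.84 in C57BL/6J tissue, and with it as a covariate Col4a6 was at 0.78 (adjusted p = 0.263). The Col4a6 call was also lost without C57BL/6J tissue replicate 1 (adjusted p = 0.122), C57BL/6J tissue replicate 2 (adjusted p = 0.186), tsA58 tissue replicate 1 (adjusted p = 0.0831) or tsA58 tissue replicate 2 (adjusted p = 0.0653), and after quantile normalization (adjusted p = 0.0642). Col6a4, at background in tsA58 tissue, was lower by at least 1.59-fold (fitted log2 difference -1.48, SE 0.27, adjusted p = 0.00456). This gene passed the filter through the C57BL/6J tissue arrays alone, which largely set its direction here, so that direction is not a result. Its sign turned to 0.65 with centring on hybridisation controls, which moved the median of all genes by 2.13. That centring called 28 collagens higher and 0 lower, against 12167 of 13285 genes higher and 18 lower.

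The tissue arrays were not alike within tsA58. Replicate 1 was the highest of its group for 31 of 35 collagens and for 39.2% of all genes, and replicate 3 was the lowest for 22 collagens and for 30.1% of all genes. The range within the group was over 1 log2 unit for 15 of 35 collagens in the tsA58 line, for 24 in tsA58 tissue, for 1 in the C57BL/6J line and for 1 in C57BL/6J tissue. Its median over collagens was 0.80 in the tsA58 line, 0.43 in the C57BL/6J line and 0.13 in C57BL/6J tissue. Over all genes it was 0.58 in the tsA58 line, 0.35 in the C57BL/6J line and 0.17 in C57BL/6J tissue. In tsA58 tissue the median was 1.38 over collagens and 0.50 over all genes. The hybridisation control mean was 7.52 for replicate 1, 9.04 for replicate 2 and 9.66 for replicate 3, with replicate 1 the lowest, as for the adipocyte markers, while replicate 2 was the highest for the gastric epithelial and pancreatic markers. The mean of the 2 adipocyte markers was 6.00, 10.38 and 9.67 in tsA58 tissue, and 5.46 and 5.60 in C57BL/6J tissue. The mean of the 11 gastric epithelial markers was 9.75, 11.87 and 10.09 in tsA58 tissue, and 10.64 and 10.44 in C57BL/6J tissue, and that of the 7 pancreatic markers was 5.42, 10.55 and 6.40 in tsA58 tissue, and 11.26 and 6.57 in C57BL/6J tissue. The part of these markers in the collagen levels was not tested. Without tsA58 tissue replicate 1, 1193 of 13214 genes were called higher between the tissues and 543 lower. Among the collagens, 8 were then called, 1 higher and 7 lower. Without C57BL/6J tissue replicate 1 there was 1, and without C57BL/6J tissue replicate 2 there was also 1.

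The line-tissue difference differed between the strains for 6 of 35 collagens, against 20.3% of all genes. Given as tsA58 minus C57BL/6J, 2 were positive, against 7.3% of all genes, and 4 negative, against 13%. Col8a2 had -4.26 (SE 0.48, adjusted p = 0.000475) and Col8a1 -3.78 (SE 0.61, adjusted p = 0.00267), so both collagen VIII chains were lower in the tsA58 line relative to tissue than in the C57BL/6J line relative to tissue. Col23a1 had -1.83 (SE 0.36, adjusted p = 0.00625), with -1.15 and 0.01 for its other probe sets. Both lines were at background for Col23a1, so this value carries the same tissue levels as the difference of 1.79 between the tissues. Col6a4 had 1.56 (SE 0.36, adjusted p = 0.0124), likewise with the strains apart in tissue and both lines at background. Since Col6a4 passed the filter through the C57BL/6J tissue arrays alone, the direction of this value is not a result. Col4a1 had 1.98 (SE 0.60, adjusted p = 0.0377) and Col18a1 -1.96 (SE 0.63, adjusted p = 0.0457).

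The Col18a1 call was lost without any 1 of the C57BL/6J arrays or without tsA58 line replicate 1 or 2 (adjusted p from 0.0718 to 0.154) and after quantile normalization (adjusted p = 0.0633). The Col4a1 call was lost without any 1 of the C57BL/6J arrays, without tsA58 line replicate 1 or without tsA58 tissue replicate 2 or 3 (adjusted p from 0.0612 to 0.116). The count of collagens was 10 without tsA58 line replicate 3, where 1588 of 13240 genes were positive and 2109 negative. It was 11 without tsA58 tissue replicate 1, where 1033 of 13214 genes were positive and 1744 negative.

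Across the 5 comparisons 20 of 35 members were called at least once, against 54.6% of all tested genes, and 15 were not: Col1a1, Col2a1, Col4a3, Col4a5, Col5a1, Col5a3, Col6a1, Col7a1, Col9a1, Col11a2, Col12a1, Col16a1, Col20a1, Col22a1 and Col25a1. Their log2 fold changes, for the probe set that stood for each gene, ran from -1.70 to 1.40. For Col4a5, Col12a1 and Col25a1, another probe set passed the threshold in the C57BL/6J line against tissue. With SEs up to 1.26 (Col1a1), changes of 2-fold in the variable members could not be detected.

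Collagen chains need enzymes and carriers before they leave the cell, and genes of these steps were set beside the family from a list of 55, of which 44 were tested. Of 17 modification and folding genes, 6 were higher and 1 lower in tsA58, against 12.8% of all genes higher and 18.9% lower. In C57BL/6J 8 were higher and 1 lower, against 17.5% of all genes higher and 16.6% lower. P4ha1, a catalytic subunit of the prolyl hydroxylase that stabilises the triple helix, was higher by 2.22 (SE 0.29) in tsA58 and 3.09 (SE 0.32) in C57BL/6J. P4ha2, another catalytic subunit, was higher by 2.03 (SE 0.41) in tsA58 and 2.40 (SE 0.45) in C57BL/6J. The lysyl hydroxylase gene Plod3 was higher by 1.56 in tsA58 and 1.83 in C57BL/6J, and P3h4, part of a lysine modification complex, by 1.19 in tsA58 and 1.96 in C57BL/6J. The galactosyltransferase gene Colgalt1 was higher by 1.05 in tsA58 and 2.11 in C57BL/6J, with a difference of -1.06 (SE 0.34, adjusted p = 0.0459), and was lower between the lines, at -1.01. Serpinh1, the collagen chaperone HSP47, was higher by 1.09 in tsA58 and by 0.999 (adjusted p = 0.0289), just under 2-fold, in C57BL/6J. In C57BL/6J alone calls were made for P4hb (1.08), P3h1 (1.50) and Crtap (1.27), which act in proline modification, without a call on the difference between strains. P3h2, a prolyl 3-hydroxylase, was lower, by at least 8.06-fold in tsA58, where the line was at background, and at -1.03 in C57BL/6J. It was also higher by 1.85 in tsA58 tissue than in C57BL/6J tissue, and its line-tissue differences differed by -2.28 (SE 0.39, adjusted p = 0.0035). The related P3h3 had a difference of -1.13 (SE 0.35, adjusted p = 0.041). P4ha3 was at least 1.51-fold higher in the tsA58 line than in the C57BL/6J line, which was at background, and Plod1 by 1.39 in tsA58 tissue than in C57BL/6J tissue.

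For this list and those that follow, 12.8% of all genes were higher and 18.9% lower in the tsA58 line against tissue. In C57BL/6J 17.5% of all genes were higher and 16.6% lower. Of 8 secretion and trimming genes tested, 0 were called by limma in the tsA58 line against tissue (1 at an unadjusted p under 0.05) and 3 were higher in the C57BL/6J line. These were Adamts3, a procollagen N-proteinase, at 2.01 (SE 0.36), Sec24d, a coat protein of secretory vesicles, at 1.23, and Pcolce, an enhancer of procollagen C-proteinase, at 1.02. Adamts3 was at background in both tsA58 groups and at least 4.62-fold lower in the tsA58 line than in the C57BL/6J line. Sec24d was lower between the lines, at -1.02, and Pcolce2, a relative of Pcolce, was at least 5.25-fold higher in tsA58 tissue than in C57BL/6J tissue, where it was at background.

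Of 4 crosslinking genes of the lysyl oxidase family tested, Lox and Loxl3 were higher in the tsA58 line, by 1.90 (SE 0.66) and 1.62 (SE 0.42). In the C57BL/6J line Loxl3 was higher by 2.44 (SE 0.47) and Loxl1 lower, at -2.26 (SE 0.50), and Loxl1 was higher in the tsA58 line than in the C57BL/6J line by 2.22 (SE 0.44). Of 6 receptor and uptake genes, Itga1, a subunit of a collagen-binding integrin, was at background in both lines and at least 27.4-fold lower than tissue in tsA58 and at least 24.5-fold lower in C57BL/6J (fitted log2 differences -5.78 and -5.27). The endocytic collagen receptor gene Mrc2 was higher in the C57BL/6J line by 2.23 (SE 0.66), and the receptor kinase gene Ddr1 by 1.00 (SE 0.25).

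Of 5 collagenase and gelatinase genes, Mmp13, which cleaves fibrillar collagen, was at background in the tissues and bright in the lines. Its mean was 11.1 in the tsA58 line, against 2.66 in tsA58 tissue, and 11.7 in the C57BL/6J line, against 2.49 in C57BL/6J tissue. Against the array medians it was at least 80.9-fold higher in tsA58 and at least 114.6-fold higher in C57BL/6J. Mmp8, another collagenase gene, was above background in the tsA58 line alone, at least 2.57-fold higher than in tsA58 tissue and at least 2.64-fold higher than in the C57BL/6J line, and both C57BL/6J groups were at background. Mmp2, the gene of gelatinase A, was lower, at -2.38 (SE 0.40), in the tsA58 line against tissue and at -2.76 (SE 0.40) against the C57BL/6J line. Its line-tissue difference differed between the strains by -3.36 (SE 0.59, adjusted p = 0.0039). Of 4 inducer genes, Tgfb1 was higher by 1.35 in tsA58 and 3.53 in C57BL/6J, with a difference of -2.18 (SE 0.43, adjusted p = 0.00611), and by 1.84 in tsA58 tissue than in C57BL/6J tissue. Tgfb2 was lower, at -1.28 in tsA58 and -1.13 in C57BL/6J.

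**Figure D5:**
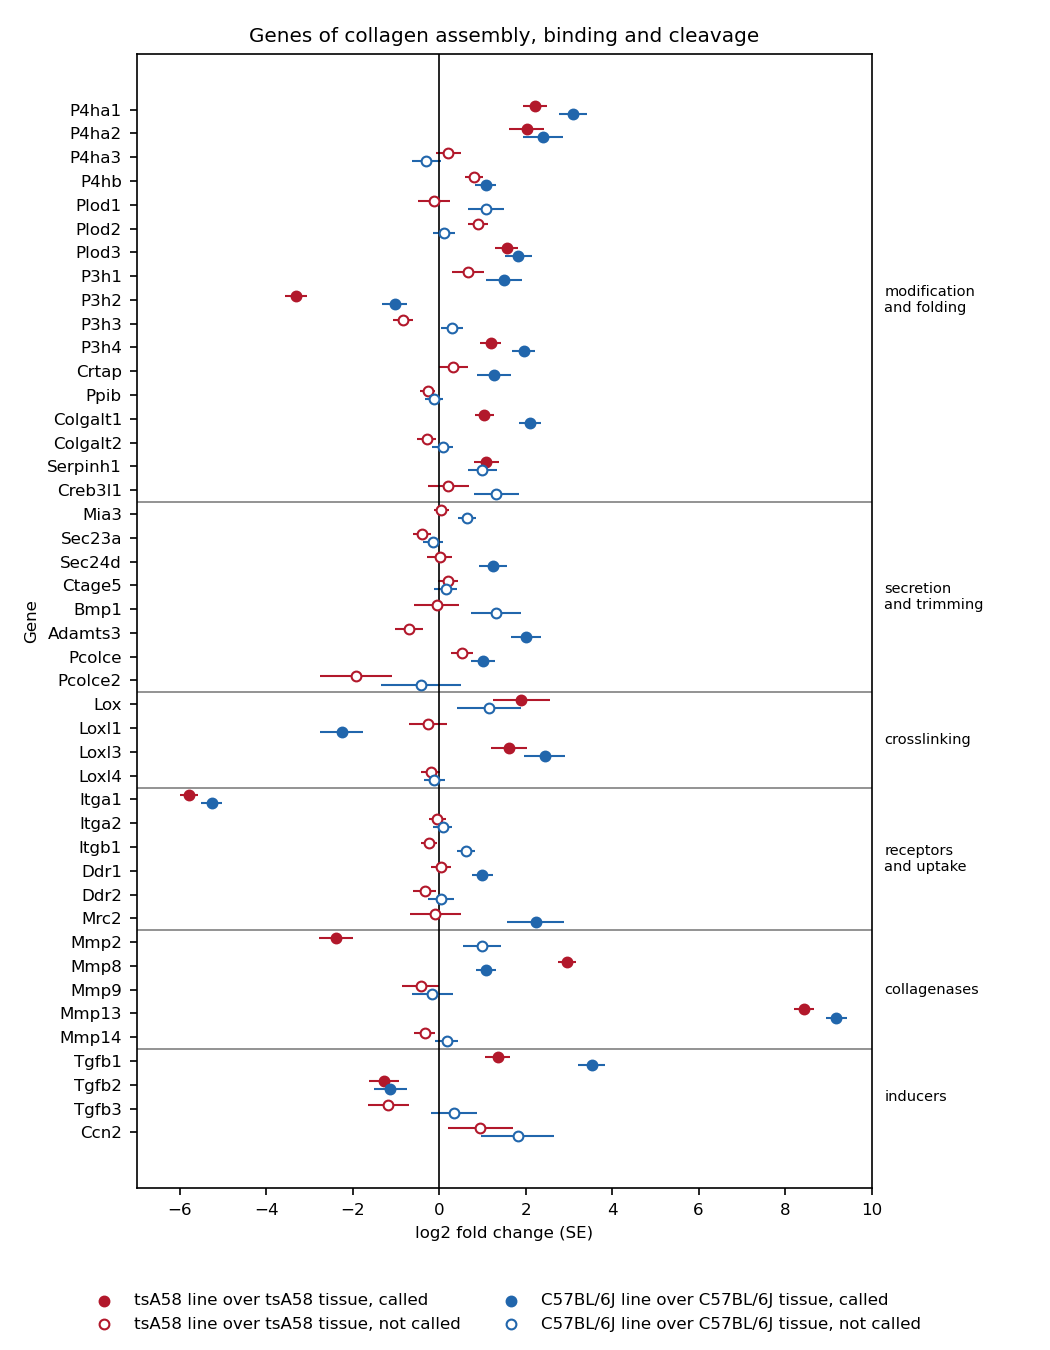
Log2 fold change of the 44 tested genes of collagen assembly, binding, cleavage and induction (rows, by list) in the line over the tissue of its strain, with bars of 1 SE, for tsA58 (red) and C57BL/6J (blue). Filled points were called and open points were not. Mmp13 lies at 8.43 and 9.19, with both tissues at background, and Itga1 at -5.78 and -5.27, with both lines at background, while P4ha1 and P4ha2 are to the right of 0 in both strains.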

How the data were processed

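RNA of 11 samples was hybridised to Affymetrix mouse arrays, 1 array each, after 2-round amplification from oligo(dT) and then random primers, per the labels' protocols. Such amplification favours the 3′ ends of transcripts. The authors deposited log2 values per probe set made with RMA, per the submitters' processing notes (version not given in the sources). RMA is meant to bring all arrays to the same intensity distribution, which removes much of any shift common to most transcripts. The deposited array medians still ran from 4.66 to 4.84. A further quantile normalization moved the median of all genes between the tissues from 0.18 to 0.06.

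Samples were grouped by title and strain label. Control probe sets were left out, and the highest of a gene's single-symbol probe sets by mean was used. Genes above the array median on at least 2 arrays entered the test, limma 3.58.1 under R 4.3.3 (lmFit and eBayes with 4 group means, 7 residual and 3.49 prior degrees of freedom), and 5 comparisons were made, each adjusted by Benjamini-Hochberg over 13285 genes. Every member called in a comparison is named. The members and lists were chosen with earlier results of these data known. On simulated data for the C57BL/6J line against tissue, with 200 of 13285 genes changed by 2 log2 units, 80% were recovered and 11 unchanged genes were called. Alternatives were other normalizations, filters, models and probe set rules, and leaving out each array. Same-numbered samples deviated together at correlations from -0.16 to 0.25, so numbers were not used as pairs. With 2 or 3 arrays per group, the number of arrays limits the precision. Promoter windows are RefSeq's for GRCm38.p6. Plots were made with matplotlib 3.10.9.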

Additional observations from a re-analysis of the deposited data

Results flagged for a closer look

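For 6 of 35 collagens, against 20.3% of all genes, the line-tissue difference differed between the strains by the interaction test in limma (adjusted p below 0.05 and 2-fold), given as tsA58 minus C57BL/6J on the log2 scale. They were Col8a2 (-4.26), Col8a1 (-3.78), Col4a1 (1.98), Col18a1 (-1.96), Col23a1 (-1.83) and Col6a4 (1.56). For Col8a2 the line was lower than tissue in tsA58 and higher in C57BL/6J. For Col6a4 all groups but C57BL/6J tissue were at background, and it passed the filter through that tissue alone, so its direction is not a result. For Col23a1 both lines were at background. Groups held 2 or 3 arrays, too few to test single arrays as outliers.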

How the results depend on the processing

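Of 41 called results of a collagen in a comparison, 17 were called under every alternative tried and 25 under every one but centring on hybridisation controls, and 1 (Col6a4 between tissues, 0.65 with that centring) changed sign. The alternatives were quantile normalization, cyclic loess, hybridisation control centring, no filter, a stricter filter, the mean of all probe sets, only the arrays of the comparison, a trended robust prior, the actin ratio as covariate, no minimum fold, a replicate block and leaving out each array. The fit of the comparison's own arrays does not apply to the difference of differences, which uses all of them. Centring on hybridisation controls called 20 collagens between the lines, 28 between the tissues and 3 for the difference of differences, against 8 between the lines, 3 between the tissues and 6 for the difference in the reported fit, and it ended 17 of the 41 calls. Of all 13285 genes it called 7582 higher and 96 lower between the lines and 12167 higher and 18 lower between the tissues. For the difference of differences it called 127 higher and 450 lower. The mean of all probe sets gave 0 of 30 by limma between the tissues (5 at an unadjusted p under 0.05) and 3 for the difference of differences. Other signs that turned belong to values not called. With hybridisation control centring, Col18a1 (1.00) and Col6a2 (1.16) turned in the C57BL/6J line against tissue and Col6a1 (0.31) between the lines. With the mean of probe sets, Col18a1 (0.10), Col1a1 (-0.43), Col5a2 (-0.65) and Col6a2 (0.033) turned in the C57BL/6J line against tissue. Col6a2 there was 0.10 with the actin covariate and ran from -0.19 to 0.066 without 1 array. Col11a1 in the tsA58 line against tissue ran from -2.13 to -0.56 without 1 array, and was 0.22 without tsA58 line replicate 3 and tsA58 tissue replicate 1 together. The cause of these changes was not tested. Leaving out 1 array gave 12 to 18 collagens in the tsA58 line against tissue (18 without tsA58 line replicate 3), 7 to 12 in the C57BL/6J line against tissue (7 without C57BL/6J tissue replicate 2), 5 to 10 between the lines (5 without C57BL/6J line replicate 1), 1 to 8 between the tissues and 3 to 11 for the difference of differences. Where this left 1 C57BL/6J tissue array, that array was assumed to vary like the other groups. Without tsA58 line replicate 3 and tsA58 tissue replicate 1 together, chosen after seeing the data, there were 12 between the tissues and 16 for the difference of differences. Of 13169 genes, that fit called 1383 higher and 681 lower between the tissues. For the difference of differences it called 1747 higher and 2215 lower. With the replicate block the counts were 11 in tsA58, 12 in C57BL/6J, 8 between the lines, 2 between the tissues and 5 for the difference of differences; in 5 of 30 checks the best correlated array of another group had the same number.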
